A study of Mus musculus with 32 samples.

Results

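RNA sequencing compared LSK cells of mice given AC220 with LSK cells of mice given vehicle. The 8 libraries, 4 of each treatment, were chosen by their labels alone and are 8 of the 32 libraries of the series. LSK cells are lineage-negative bone marrow cells that carry Sca-1 (encoded by Ly6a) and Kit on their surface, a gate that holds hematopoietic stem cells and early progenitors. All mice of the 4 LSK groups used here, controls included, were C57BL/6 mice with a FLT3-ITD transgene. The AC220 group received AC220 (quizartinib), an inhibitor of the FLT3 kinase, and the Vehicle group the carrier. The other two LSK groups of 4 libraries each, Combination (AC220 with the lysosome inhibitor Lys05) and Lys05 alone, served to estimate the spread between libraries and gave a second AC220 contrast between other libraries. The labels call the 4 libraries of a group biological replicates and give no dose, treatment time, age, batch or animal, so the p-values measure the spread between these libraries.

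FLT3 is a receptor tyrosine kinase of stem and progenitor cells that binds FLT3 ligand. An internal tandem duplication (ITD) makes it signal without ligand, and the mutant receptor activates STAT5, the RAS-MAPK cascade and the PI3K-AKT-mTOR pathway. These raise MYC, cyclins, glycolysis and protein synthesis, while FOXO factors, which AKT keeps out of the nucleus, favor quiescence and cell cycle inhibitors. Transcription of the FLT3 gene itself is not the target of the drug, which blocks the kinase.

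The libraries of the 2 treatments differed in the length of the transcripts their counts came from, and this bears on every value below. The AC220 libraries held 40 to 55.9 M counts on genes and the vehicle libraries 41 to 50.4 M. Counts on genes whose longest annotated transcript is under 1000 bases made up 7.43% to 8.37% of gene counts with AC220 and 19.0% to 20.7% with vehicle. The means were 7.97% ± 0.396 with AC220 and 19.8% ± 0.724 with vehicle (SD, n = 4 each; two-sided exact permutation p = 0.0286, the smallest that 4 against 4 libraries allow). AC220 libraries resembled each other more: the median correlation of log2 CPM of a library with the others of its group was 0.95 to 0.985 with AC220 and 0.872 to 0.904 with vehicle. Mitochondrial genes held 0.265% to 0.371% of gene counts with AC220 and 0.469% to 1.64% with vehicle. Genes with any count were 19250 to 21591 per AC220 library and 16294 to 17468 per vehicle library. Tested genes above 1 CPM were 11723 to 11857 with AC220 and 11755 to 12116 with vehicle. The TMM scaling factors were 1.27 to 1.31 with AC220 and 0.73 to 0.87 with vehicle. None of the fits below matched on the number of genes detected, and its part in the results was not tested. A treatment effect on short messages and a technical loss of short messages in the AC220 libraries cannot be told apart by this design, because both follow the treatment.

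The comparison was therefore made in 4 fits of edgeR's quasi-likelihood test, each over the same 15697 genes and with Benjamini-Hochberg adjustment over all of them. The first used the counts as they are. The second, from which effect sizes are given unless another is named, matched genes on the length of the longest annotated transcript, with an offset for each gene and library. The third matched on that length and on GC content. The fourth matched on the length, GC content and coding length of the principal transcript, because many genes of short mRNA have a long annotated isoform: Ndufb7 has a longest transcript of 4435 bases and a principal one of 623, of which 411 are coding. At an adjusted p under 0.05, 8619 genes (54.9%) passed as counted, 7593 (48.4%) matched on length, 7028 (44.8%) matched on length and GC, and 6583 (41.9%) in the fourth fit. Both as counted and matched on length, 5918 (37.7%) passed in the same direction. Only genes called in the same direction in all 4 fits are said here to have risen or fallen. They were 3989 genes, 25.4% of those tested: 2018 higher with AC220 (12.9%) and 1971 lower (12.6%). Every count of members below is of such calls and is to be read against these shares.

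As counted, the change followed coding length and GC content. Genes with coding sequences under 600 bases had a median log2 fold change of -1.46, and those of 1200 to 2400 bases 0.83. Matching on the longest transcript left -0.62 and 0.37, and the fourth fit 0.12 and 0.038. By GC content the medians as counted were -0.50 under 44% and 0.63 at 56% and over, and 0.0039 and 0.059 in the fourth fit. The genes lower in all 4 fits had a median coding length of 891 bases, those higher 1581, and all tested genes 1347. Their median level with vehicle was 69.9 CPM (counts scaled to a common library total with TMM factors), against 8.6 CPM for the genes that were higher.

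**Figure D1:**
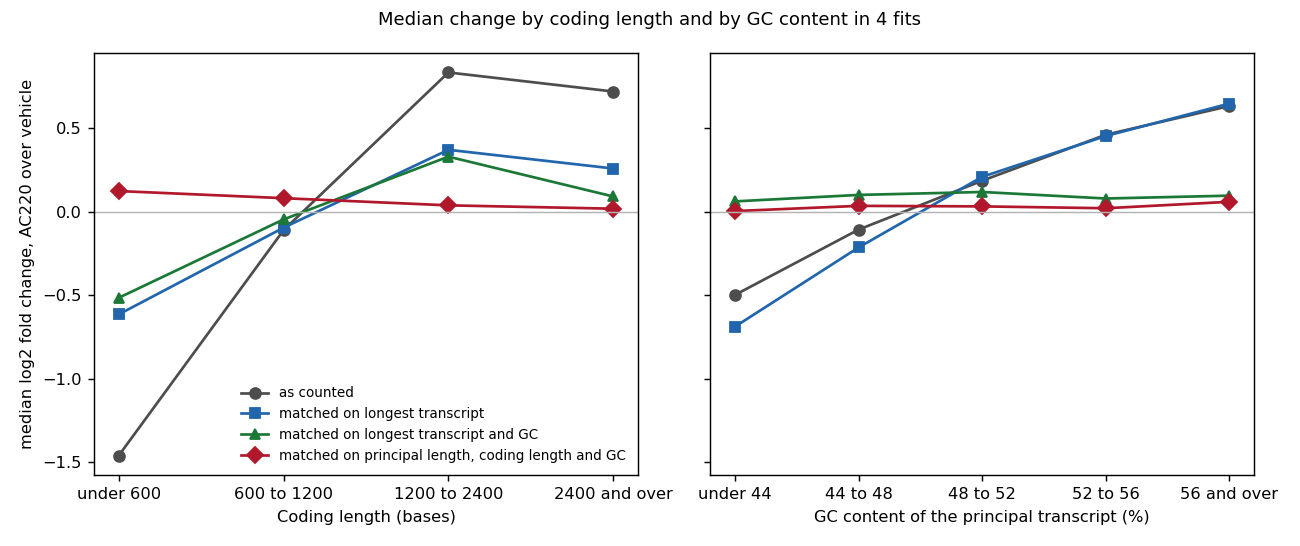
Median log2 fold change of AC220 over vehicle by class of coding length (left) and of GC content (right), with 1 line for each of the 4 fits. As counted the median ran from -1.46 to 0.83 over the coding length classes, and in the fit matched on principal length, coding length and GC it stayed between 0.018 and 0.12.

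The promoters of 4 genes are shown as examples: the drug's target, and a member each of complex I, the mitochondrial ribosome and the proteasome. The motif marked in a gene need not be common in the promoters of its group, for which counts are given below. The windows run from 250 bases before to 50 bases after the transcription start, 5′ to 3′, and are RefSeq sequences on GRCm38.p6. Capitals mark CACGTG (the E-box) in Flt3, chr5:147400440-147400739 on the minus strand. They mark CCGGAAG (an ETS motif) in Ndufb7, chr8:83566508-83566807 on the plus strand, and in Mrpl33, chr5:31613701-31614000 on the plus strand. In Psma2, chr13:14612992-14613291 on the plus strand, they mark the NRF1 motif, GCGCA then any base then GCGC.
Flt3: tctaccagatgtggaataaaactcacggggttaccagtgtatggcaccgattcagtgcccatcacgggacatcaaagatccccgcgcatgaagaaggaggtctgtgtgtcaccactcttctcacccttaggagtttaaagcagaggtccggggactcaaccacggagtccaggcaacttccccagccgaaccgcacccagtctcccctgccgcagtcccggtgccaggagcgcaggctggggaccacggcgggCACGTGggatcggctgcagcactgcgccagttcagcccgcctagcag
Ndufb7: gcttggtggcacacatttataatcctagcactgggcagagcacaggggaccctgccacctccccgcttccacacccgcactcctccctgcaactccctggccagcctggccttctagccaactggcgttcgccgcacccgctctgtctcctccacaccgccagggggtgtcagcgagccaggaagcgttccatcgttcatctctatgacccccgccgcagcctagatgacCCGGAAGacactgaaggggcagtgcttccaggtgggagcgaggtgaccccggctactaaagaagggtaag
Mrpl33: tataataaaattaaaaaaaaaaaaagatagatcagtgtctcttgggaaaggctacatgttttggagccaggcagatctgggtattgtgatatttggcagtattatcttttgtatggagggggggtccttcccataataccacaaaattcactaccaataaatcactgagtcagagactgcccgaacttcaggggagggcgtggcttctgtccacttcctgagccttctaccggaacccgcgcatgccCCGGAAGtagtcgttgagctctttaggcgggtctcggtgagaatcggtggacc
Psma2: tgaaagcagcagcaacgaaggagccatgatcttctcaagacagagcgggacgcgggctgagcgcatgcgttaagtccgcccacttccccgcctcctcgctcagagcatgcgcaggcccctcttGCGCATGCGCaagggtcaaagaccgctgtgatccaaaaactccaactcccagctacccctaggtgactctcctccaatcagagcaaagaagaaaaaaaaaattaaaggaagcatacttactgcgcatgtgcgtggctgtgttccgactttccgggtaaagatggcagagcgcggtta

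Motifs were searched on both strands of such windows. CCGGAAG was in 22.4% of 1789 windows of genes lower in all 4 fits, in 16.1% of 1948 windows of genes that were higher, in 16.6% of 13800 windows of tested genes and in 8.86% of all 32851 windows of the table. The NRF1 motif was in 12.9%, 9.7%, 9.16% and 4.6% of these sets. The STAT motif TTCNNNGAA was in 6.43%, 6.06%, 7.09% and 8.3%, and CACGTG in 10.1%, 10.6%, 9.7% and 7.15%. Of the listed groups, the windows of mitochondrial ribosomal protein genes held CCGGAAG in 25 of 74, those of proteasome genes in 14 of 36, those of cytosolic ribosomal protein genes in 26 of 69 and those of complex I genes in 4 of 35. The NRF1 motif was in 8 of the 35 complex I windows, 13 of the 74 mitochondrial ribosomal protein windows and 6 of the 36 proteasome windows. None of the 16 windows of JAK and STAT genes held TTCNNNGAA. Motifs can overlap, and a match is a run of letters, not a bound site.

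The receptor that AC220 inhibits was higher in messenger RNA. Flt3 stood at 377, 449.7, 474 and 471 CPM in the 4 AC220 libraries, against 124, 186, 96.5 and 124 CPM in the 4 vehicle libraries. Every AC220 library was above every vehicle library. For 51.8% of tested genes the groups did not overlap, in 1 direction or the other. The length-matched log2 fold change was 1.06 ± 0.16 (edgeR, adjusted p = 5.2e-05), and over the 4 fits it was 0.64 to 1.74. Unless stated otherwise, log2 fold changes below are AC220 over vehicle, length-matched, ± SE. The range over the 4 fits follows where it is given, while CPM values carry no length correction. Flt3 is printed with its promoter above and lies on chromosome 5, 147330741 to 147400489 (GRCm38, minus strand). Kit, the stem cell factor receptor and 1 of the 2 gate markers, stood at 151, 182, 115 and 154 CPM with AC220 and 68.7, 47.3, 42.5 and 51.6 CPM with vehicle. It rose by 0.93 ± 0.15, with 0.76 to 1.52 over the fits. The G-CSF receptor gene Csf3r rose by 1.83 ± 0.15 (1.11 to 2.52), to a mean of 98.8 CPM with AC220, against 17.3 CPM with vehicle. Of 26 receptor genes tested, 5 were higher in all fits and 2 lower, or 1 lower without vehicle library 1. Csf2rb, the common beta chain of the IL-3 and GM-CSF receptors, passed as counted and matched on length (0.90 ± 0.17) but not in the other 2 fits (0.25 to 1.56).

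Of the 15 JAK and STAT genes, 7 rose and none fell. Stat5a and Stat5b encode the STAT5 proteins that FLT3-ITD activates. Stat5a stood at 102, 107, 98.3 and 99.97 CPM with AC220, against 23.4, 19.5, 19.6 and 18.5 CPM with vehicle, a log2 fold change of 1.64 ± 0.11 (0.85 to 2.33; edgeR, adjusted p = 2.7e-09). Stat5b stood at 112, 115, 96.2 and 107 CPM with AC220 and at 36.6, 22.5, 16.8 and 21.7 CPM with vehicle, 1.57 ± 0.15 (0.88 to 2.14). The groups of neither gene overlapped. Stat3, a STAT of gp130 and G-CSF signaling, stood at 170.4, 121, 106 and 135 CPM with AC220 and 23.9, 30.1, 39.6 and 27.9 CPM with vehicle, and rose by 1.61 ± 0.19 (0.81 to 2.13). It lies beside Stat5a on chromosome 11, and their annotated ends overlap on opposite strands. Jak3, the kinase of common gamma chain receptors, rose by 1.58 ± 0.20 (0.83 to 2.29), with means of 131 and 26.8 CPM in AC220 and vehicle libraries. The median of the 15 genes was 1.09 matched on length and 0.75 in the fourth fit, against 0.09 and 0.03 over all genes.

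Of 17 known STAT5 target genes, 2 rose and none fell, and 1 was lower without AC220 library 1 or 3. Pim2 and Pim3, serine-threonine kinases that promote survival, were the 2. Pim3 stood at 36.6, 40.7, 46.2 and 38.2 CPM with AC220 and 10.4, 7.39, 6.78 and 7.88 CPM with vehicle, 1.97 ± 0.22 (1.35 to 2.31). Pim2 stood at 151, 309.98, 229.7 and 181 CPM with AC220, against 87.0, 66.4, 61.8 and 73.3 CPM with vehicle, and rose by 1.56 ± 0.28 (1.17 to 2.15). The third family member, Pim1, had a negative log2 fold change in every fit, -0.89 ± 0.28 matched on length and -1.43 to -0.42 over the fits, and was called in the 3 matched fits and not as counted. Cish, which encodes a STAT5-induced inhibitor of cytokine signaling, was called higher as counted alone (0.20 ± 0.25 matched on length, adjusted p = 0.543, -0.30 to 0.86). The suppressor of cytokine signaling Socs2 stood at -0.91 ± 0.15 and at -0.91 to 0.11 over the fits, and the cyclin gene Ccnd2 at -0.80 ± 0.20 and -0.85 to -0.35. Both were called lower matched on length and not as counted.

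In the RAS-MAPK cascade, 7 of 39 adaptors and kinases rose and 4 fell. Shc1, an adaptor that couples receptors to RAS, stood at 116, 126, 117 and 130.1 CPM with AC220 and 18.9, 12.4, 16.6 and 9.18 CPM with vehicle, and rose by 2.45 ± 0.18 (1.82 to 3.10). The ERK kinase Map2k1 (MEK1) stood at 75.3, 69.3, 69.5 and 78.6 CPM with AC220 and 19.1, 14, 9.29 and 16.2 CPM with vehicle, 1.98 ± 0.20 (1.52 to 2.32). The GTPase gene Nras fell to 49.1, 59.0, 63.2 and 52.7 CPM with AC220, against 101, 87.0, 123 and 122 CPM with vehicle, -1.64 ± 0.16 (-1.64 to -0.79). The adaptor and the kinase were higher, and the GTPase that acts between them lower, in all 4 AC220 libraries. Of the 14 genes that ERK induces as feedback, Dusp6 and Ier3 rose and none fell, and 4 were higher when vehicle library 1 was left out. The ERK phosphatase Dusp6 varied among AC220 libraries, with 12.9, 14.9, 22.5 and 5.35 CPM against 2.46, 2.11, 2.71 and 4.17 CPM with vehicle (1.77 ± 0.44, 1.54 to 2.28). It lost its call in limma voom with quality weights (1.23, adjusted p = 0.376). Ier3, an immediate early survival gene, stood at 13.3, 24.3, 19.1 and 14.4 CPM with AC220 and 14.6, 3.25, 3.44 and 4.69 CPM with vehicle, so that vehicle library 1 lay within the AC220 range (2.83 ± 0.47, 1.45 to 2.83). Dusp5 passed in the first 2 fits alone (1.0 ± 0.23, 0.27 to 1.37).

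In the PI3K-AKT-mTOR pathway 12 of 45 members rose and 4 fell. Akt1, the main AKT kinase, stood at 371, 406, 382 and 372 CPM with AC220, against 35.9, 45.2, 40.9 and 29.2 CPM with vehicle. Its log2 fold change was 2.88 ± 0.17 (edgeR, adjusted p = 1.3e-09; 1.99 to 3.34), higher in all 4 AC220 libraries. Gsk3a, a kinase that AKT inhibits, rose by 2.66 ± 0.19 (1.71 to 2.89), with means of 32.9 CPM with AC220 and 4.45 CPM with vehicle. Rictor, the scaffold of mTOR complex 2, rose by 1.78 ± 0.20 (1.78 to 2.29). Eif4ebp1, the translation repressor 4E-BP1 that mTORC1 phosphorylates, fell to 130.03, 121, 119 and 115 CPM with AC220, against 664, 605, 904 and 929.6 CPM with vehicle, -2.60 ± 0.14 (-2.67 to -2.0). Rheb, the GTPase that activates mTORC1, fell to 59.0, 52.2, 60.9 and 57.6 CPM with AC220, against 226, 226, 307 and 269 CPM with vehicle, -2.86 ± 0.16 (-2.86 to -1.35). Both genes have short coding sequences, 351 and 552 bases, and both kept their call in the fit that matched on coding length.

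**Figure D2:**
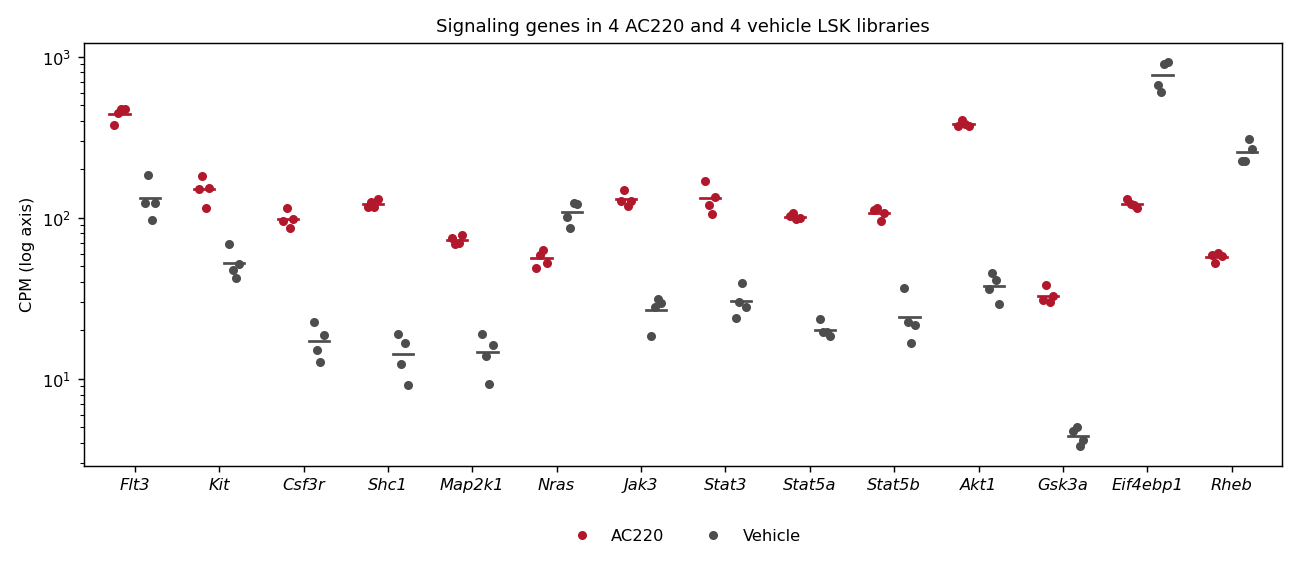
CPM on a log axis of 14 signaling genes in the 4 AC220 libraries (left of each pair) and the 4 vehicle libraries (right), with bars at the group means. Akt1 ran from 371 to 406 CPM with AC220 and from 29.2 to 45.2 CPM with vehicle, and Eif4ebp1 and Rheb lay lower with AC220 without overlap.

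FOXO factors and their targets had 4 of 20 members higher and 3 lower. Foxo3, a FOXO factor of stem cell quiescence, fell to 15.0, 12.5, 11.3 and 13.7 CPM with AC220, against 28.3, 35.2, 36.7 and 31.2 CPM with vehicle (-1.74 ± 0.25, -2.85 to -1.33). Foxo1 was low in both groups, at means of 8.86 and 5.89 CPM in AC220 and vehicle libraries, and passed no fit (0.42 ± 0.38). The mitophagy receptor and FOXO target Bnip3l was called lower in 3 fits (-1.41 ± 0.14) and stood at -0.32 in the fourth (adjusted p = 0.0523).

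Myc rose. The oncogene stood at 496, 467, 534 and 374 CPM with AC220, against 119.5, 101, 119.7 and 164 CPM with vehicle, 1.62 ± 0.20 (1.28 to 1.93; edgeR, adjusted p = 3.8e-06). Mxd4, which encodes a repressor that competes with MYC for MAX, fell by 1.31 ± 0.17 on the log2 scale (-1.54 to -0.62), and Mlxip (MondoA), a partner of MLX, rose by 1.24 ± 0.17 (0.58 to 1.54). In the network as a whole 4 of 14 rose and 1 fell, or 2 were lower without AC220 library 1 or vehicle library 1. Ribosome biogenesis genes, a large class of MYC targets, had 9 of 51 higher and 6 lower, with 5 higher and 6 lower when AC220 library 3 was left out. Noc2l, a nucleolar protein gene, stood at 327, 366, 367 and 326 CPM with AC220 and 26.0, 32.4, 24.4 and 32.3 CPM with vehicle (3.08 ± 0.15, 2.18 to 3.59). Nop16 (-2.07 ± 0.15, -2.47 to -1.89) and the box H/ACA protein gene Nhp2 (-1.20 ± 0.11, -2.79 to -1.20) fell. Brix1, a factor of large subunit assembly outside the list, fell to 66.0, 65.3, 79.1 and 70.7 CPM with AC220, against 1034, 859, 1036 and 1141 CPM with vehicle, -4.31 ± 0.15 (-4.31 to -3.53). The groups of neither Noc2l nor Brix1 overlapped, which was a condition of the ranking below that names both.

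Of 46 mitosis genes 15 fell and 4 rose, and of 46 S phase genes 10 fell and 11 rose. Top2a, the topoisomerase of chromosome segregation, stood at 266, 197, 204 and 219.5 CPM with AC220 and 536, 464, 336 and 355 CPM with vehicle, -1.51 ± 0.11 (-1.51 to -0.93). The condensin gene Smc2 (-2.15 ± 0.13, -2.15 to -1.36), the kinetochore gene Spc25 (-2.54 ± 0.13, -2.76 to -0.44) and the survivin gene Birc5 (-2.99 ± 0.16, -2.99 to -0.39) fell. Cdk1, the mitotic kinase, fell to 179.8, 177, 211 and 173 CPM with AC220, against 469, 387, 506 and 533 CPM with vehicle (-2.04 ± 0.14, -2.08 to -1.36). In S phase, Pola1, the catalytic subunit of DNA polymerase alpha, fell (-1.91 ± 0.14, -1.91 to -1.22), and Uhrf1, which guides maintenance DNA methylation, rose to 298, 448, 434 and 380.1 CPM with AC220, against 67.3, 61.5, 42.5 and 49.6 CPM with vehicle (2.13 ± 0.14, 1.43 to 2.82). The cyclin gene Ccne2 fell as well (-2.48 ± 0.25, -2.48 to -1.17).

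Among cyclins, CDKs and their inhibitors 7 of 30 rose and 5 fell. The inhibitor gene Cdkn1a (p21) fell to 35.9, 39.9, 57.9 and 46.3 CPM with AC220, against 256, 214, 249.9 and 203 CPM with vehicle, -2.41 ± 0.20 (-2.79 to -1.67; edgeR, adjusted p = 5.9e-08). Cdkn1c (p57), an inhibitor of quiescent stem cells, was low in both groups, with 1.78, 1.12, 1.67 and 1.30 CPM with AC220 and 1.82, 2.40, 7.15 and 5.69 CPM with vehicle. Vehicle library 1 lay just above the highest AC220 library. Cdkn1c fell by 1.30 ± 0.40 (-2.03 to -1.30, adjusted p = 0.0127 in edgeR), a call that was lost without vehicle replicate 3 (-1.0, adjusted p = 0.051), in a fit of the 8 libraries alone (adjusted p = 0.0505) and with TMM factors by length class (-0.73, adjusted p = 0.122). Cdkn1b (p27) was called lower in 3 fits (-1.67 ± 0.35) and stood at -0.35 in the fourth. Ccnd1 passed no fit (0.22 ± 0.71, means of 8.86 and 4.73 CPM in AC220 and vehicle libraries).

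In the BCL2 family 3 of 18 genes rose and 3 fell. The pro-apoptotic genes Bax (-0.61 ± 0.14, -2.15 to -0.61) and Bad (-1.08 ± 0.15, -1.88 to -1.08) fell, with means of 34.0 and 35.5 CPM with AC220, against 151 and 130.4 CPM with vehicle. Bcl2l13, a mitochondrial BCL2-like protein gene, rose (1.59 ± 0.30, 1.34 to 1.98). Bcl2 (-0.32 ± 0.17), Mcl1 (0.12 ± 0.22) and Bcl2l11, which encodes the BH3-only protein BIM (-0.22 ± 0.23), were not called matched on length. Of these 3 genes only Mcl1 was called in any of the 4 fits, higher as counted at 0.78.

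Of 29 glycolysis genes 10 rose and 1 fell. Hk1, the first enzyme of the pathway, stood at 228, 249, 197 and 204 CPM with AC220, against 46.6, 32.4, 25.5 and 24.9 CPM with vehicle (2.10 ± 0.15, 1.37 to 2.76). Pgam1, a phosphoglycerate mutase, stood at 219, 221, 253 and 245 CPM with AC220 and 35.6, 42.6, 74.8 and 74.4 CPM with vehicle (2.43 ± 0.21, 2.05 to 2.43). Pyruvate kinase Pkm rose to a mean of 1256 CPM with AC220, against 367 CPM with vehicle (1.44 ± 0.12, 0.48 to 1.78), and the isomerase gene Tpi1 to 892 CPM with AC220, against 543 CPM with vehicle (1.35 ± 0.10, 0.72 to 1.35). No AC220 library of these 4 genes fell within the vehicle range, and for 51.8% of all tested genes the groups did not overlap. These 4 were named for the smallest p of the list, so their separation does not speak for the other members. The list median was 0.66 matched on length and 0.41 in the fourth fit. Leaving out each of the 8 libraries in turn left 6 to 9 genes higher, the 6 without AC220 library 4, and 1 lower.

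Lipid enzymes had 6 of 24 fatty acid genes higher and 2 lower, and 8 of 28 sterol genes higher and 2 lower. The count of lower fatty acid genes was 1 when AC220 library 2, 3 or 4 or vehicle library 2 was left out. Acly, which makes cytosolic acetyl-CoA from citrate, stood at 319, 327, 293 and 287 CPM with AC220 and 31.3, 37.5, 38.0 and 37.9 CPM with vehicle (2.40 ± 0.20, 1.92 to 3.08). Cpt1a, the gate of fatty acid oxidation, rose (1.35 ± 0.17, 0.82 to 2.03), and so did Acadvl, a very long chain acyl-CoA dehydrogenase (3.14 ± 0.60, 2.17 to 3.23). Acadm, its medium chain counterpart, fell (-0.87 ± 0.10, -1.20 to -0.73). Srebf2, the master factor of sterol synthesis (1.45 ± 0.11, 0.72 to 2.06), and Dhcr7, the last enzyme of the pathway (1.47 ± 0.19, 0.80 to 1.99), rose. The sterol transfer gene Stard4 fell (-1.93 ± 0.17, -1.93 to -0.97).

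Autophagy cargo is held by receptors that bind the lipid-conjugated ATG8 proteins. Of 16 ATG8 protein and receptor genes, 6 rose and 2 fell. Sqstm1, which encodes the cargo receptor p62, stood at 180.4, 204, 179 and 188 CPM with AC220 and 32.9, 28.4, 51.5 and 49.9 CPM with vehicle (1.75 ± 0.19, 1.32 to 2.21). Ncoa4, the receptor for ferritin, stood at 136, 201, 182 and 181 CPM with AC220 and 9.79, 19.0, 13 and 15.5 CPM with vehicle (2.95 ± 0.21, 2.95 to 3.61). Map1lc3b (LC3B) fell to 234, 335, 306 and 286 CPM with AC220, against 1068, 936, 1384 and 1204 CPM with vehicle, -2.69 ± 0.15 (-3.04 to -1.98; edgeR, adjusted p = 3.4e-10). The receptor gene Tax1bp1 fell less (-1.25 ± 0.12, -1.25 to -0.41). Of 26 core autophagy genes 5 rose and 2 fell, with 3 higher when AC220 library 1, 2 or 4 was left out and the lower ones were 0 without AC220 library 1 and 1 without AC220 library 3 or vehicle library 1 or 2. Ambra1, a regulator of the initiating complexes, rose (2.72 ± 0.27, 2.08 to 3.35) and Vmp1 fell (-1.17 ± 0.18, -1.17 to -0.61), although Vmp1 stood at -0.18 and had no call with the median transcript length (adjusted p = 0.478). Atg10 was called in the first 2 fits alone (-1.16 ± 0.18, -1.85 to -0.11).

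Lysosome genes had 11 of 58 higher and 7 lower. Small subunits of the V-ATPase, the proton pump that acidifies lysosomes, were among those that fell: Atp6v0e stood at 178, 177, 205 and 208 CPM with AC220 and 1201, 1787, 1939.5 and 1687 CPM with vehicle (-3.62 ± 0.17, -3.62 to -2.04). Atp6v1d (-2.43 ± 0.14, -2.43 to -1.46) and Atp6v1g1 (-1.66 ± 0.12, -3.14 to -1.15) fell too. Atp6v1e1 was called lower in 3 fits (-1.91 ± 0.15) and stood at -0.08 in the fourth. Tfeb, the master factor of lysosome genes, was called higher in 3 fits (1.59 ± 0.31) and stood at 0.63 in the fourth (adjusted p = 0.0883).

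Of 36 nuclear-encoded subunits of complex I, the entry of the respiratory chain, 26 fell and none rose. Ndufb8 fell to 88.6, 102, 102 and 102 CPM with AC220, against 1384, 1541, 1918 and 1786 CPM with vehicle, -4.18 ± 0.14 (-4.18 to -2.28; edgeR, adjusted p = 1.1e-11). Ndufab1, the acyl carrier subunit, fell to 24.1, 23.3, 25.2 and 23.9 CPM with AC220, against 213, 222, 245 and 241 CPM with vehicle (-3.94 ± 0.14, -3.94 to -2.74). The groups of both genes lay far apart, and Ndufb8 is also in a ranking below that required no overlap. Ndufb7, whose promoter is printed above, fell to a mean of 202 CPM with AC220, against 2526 CPM with vehicle (-4.33 ± 0.16, -4.86 to -1.71), and Ndufb5 by 3.14 ± 0.12 (-3.14 to -0.67). The list median was -2.69 as counted, -1.23 matched on length and -0.79 in the fourth fit. The median stayed negative while its size depended on the matching, and leaving out each library in turn left 26 to 27 genes lower. The share of counts on mitochondrial genes given above was also lower with AC220 without overlap, and its part in these results was not tested. The list has a median coding length of 433.5 bases, in the shortest of the coding length classes. Of that class 27.4% were lower and 5.92% higher in all 4 fits. In the length-matched fit 32 complex I genes were lower and 3 higher, beside 23.2% and 25.2% of all tested genes.

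Mitochondrial ribosomal proteins, which translate the genes of mitochondrial DNA, had 48 of 74 lower and 2 higher, and 45 to 50 lower when each library was left out in turn. Mrps14 stood at 115, 108, 122 and 119 CPM with AC220 and 1092, 1277, 1409.6 and 1433 CPM with vehicle (-4.07 ± 0.16, -4.07 to -2.48). Mrpl35 stood at 44.2, 48.7, 59.9 and 50.9 CPM with AC220 and 402, 469.96, 474 and 519 CPM with vehicle (-3.89 ± 0.15, -3.89 to -2.82). Both genes have principal transcripts near 3000 bases or longer and short coding sequences, 384 and 564 bases. Mrpl33 (-4.41 ± 0.17, -4.41 to -0.85) and Mrpl42 (-4.71 ± 0.18, -4.71 to -1.45) fell, with a smaller change in the fourth fit than in the others. The list has a median coding length of 582 bases, also in the shortest coding length class, of which 27.4% were lower and 5.92% higher in all 4 fits.

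The proteasome, which degrades ubiquitin-tagged proteins, had 18 of 39 genes lower and 2 higher, and 17 to 19 lower when each library was left out in turn. Psma2, a ring subunit of its core, stood at 208, 276, 319 and 276 CPM with AC220 and 1088, 1385, 1682 and 1696 CPM with vehicle (-3.00 ± 0.16, -3.00 to -1.77). Psmb1 (-2.13 ± 0.13, -2.22 to -1.31), Psma3 (-2.50 ± 0.14, -2.50 to -1.49) and Psma7 (-1.41 ± 0.10, -2.23 to -0.67) fell. The ubiquitin gene Ubb fell to 2261, 2108, 2188 and 1982 CPM with AC220, against 12530, 14320, 23327 and 19635 CPM with vehicle (-2.18 ± 0.12, -3.03 to -2.18).

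Translation initiation factors had 12 of 39 lower and 3 higher, or 5 higher without vehicle library 3. Eif2s2, the beta subunit of eIF2, which brings the initiator tRNA, fell to 70.3, 45.2, 59.6 and 54.8 CPM with AC220, against 773, 713, 554 and 680 CPM with vehicle (-4.24 ± 0.20, -4.24 to -3.26). Eif5 (-1.92 ± 0.12, -1.92 to -1.23) and Eif1ax (-2.36 ± 0.11, -2.36 to -0.70) fell. Spliceosome genes had 14 of 43 lower and 7 higher. Lsm1, of the cytoplasmic decapping ring (-3.03 ± 0.12, -3.03 to -2.27), Lsm6 (-2.93 ± 0.13, -2.93 to -1.31) and Lsm7 (-3.11 ± 0.16, -4.58 to -2.15) fell. The splicing factor gene Srsf2, with principal transcripts of 1612.5 bases on average, rose to 139 CPM with AC220, against 35.2 CPM with vehicle (2.16 ± 0.13, 1.98 to 2.33).

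**Figure D3:**
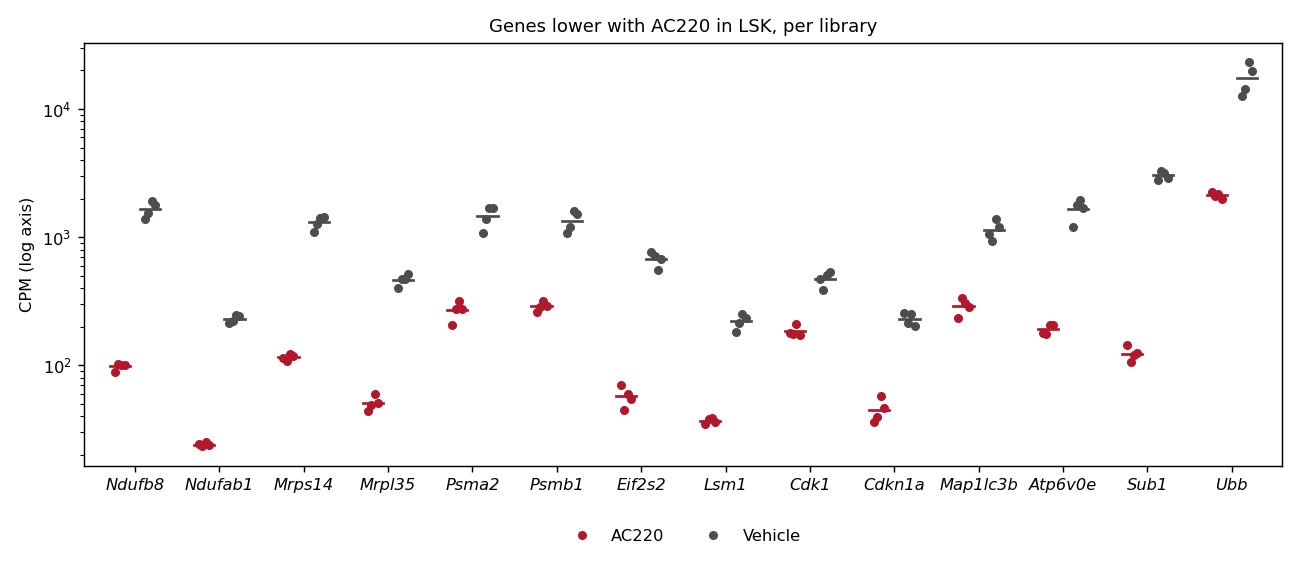
CPM on a log axis of 14 genes that fell, in the 4 AC220 libraries (left of each pair) and the 4 vehicle libraries (right), with bars at the group means. The groups of none of the 14 overlap, which was a condition of the rankings that name Ndufb8, Sub1 and Ubb. Genes named from the gene lists were mostly those of smallest p, a choice that also favors groups without overlap. Of all tested genes, 51.8% had groups that did not overlap, so the separation shown here does not speak for other genes. Ndufb8 ran from 88.6 to 102 CPM with AC220 and from 1384 to 1918 CPM with vehicle.

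The counts for cytosolic ribosomal protein genes depended on the matching. As counted, 75 of 78 were lower and none higher, beside 25.5% and 29.4% of all tested genes. Matched on length 41 were lower and 17 higher, beside 23.2% and 25.2%, and in all 4 fits 22 lower and none higher. The list has a median coding length of 454.5 bases. Of tested genes with coding sequences under 600 bases, 27.4% were lower and 5.92% higher in all 4 fits. The list median was -1.60 as counted, -0.34 matched on length and 0.13 in the fourth fit. Rpl18, a large subunit protein gene, fell in all fits (-2.25 ± 0.12, -2.63 to -1.55). Rpl36 was lower as counted (-0.29) and higher matched on length (2.08 ± 0.10), and Rpl32 likewise (-0.47 and 1.31 ± 0.07).

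**Figure D4:**
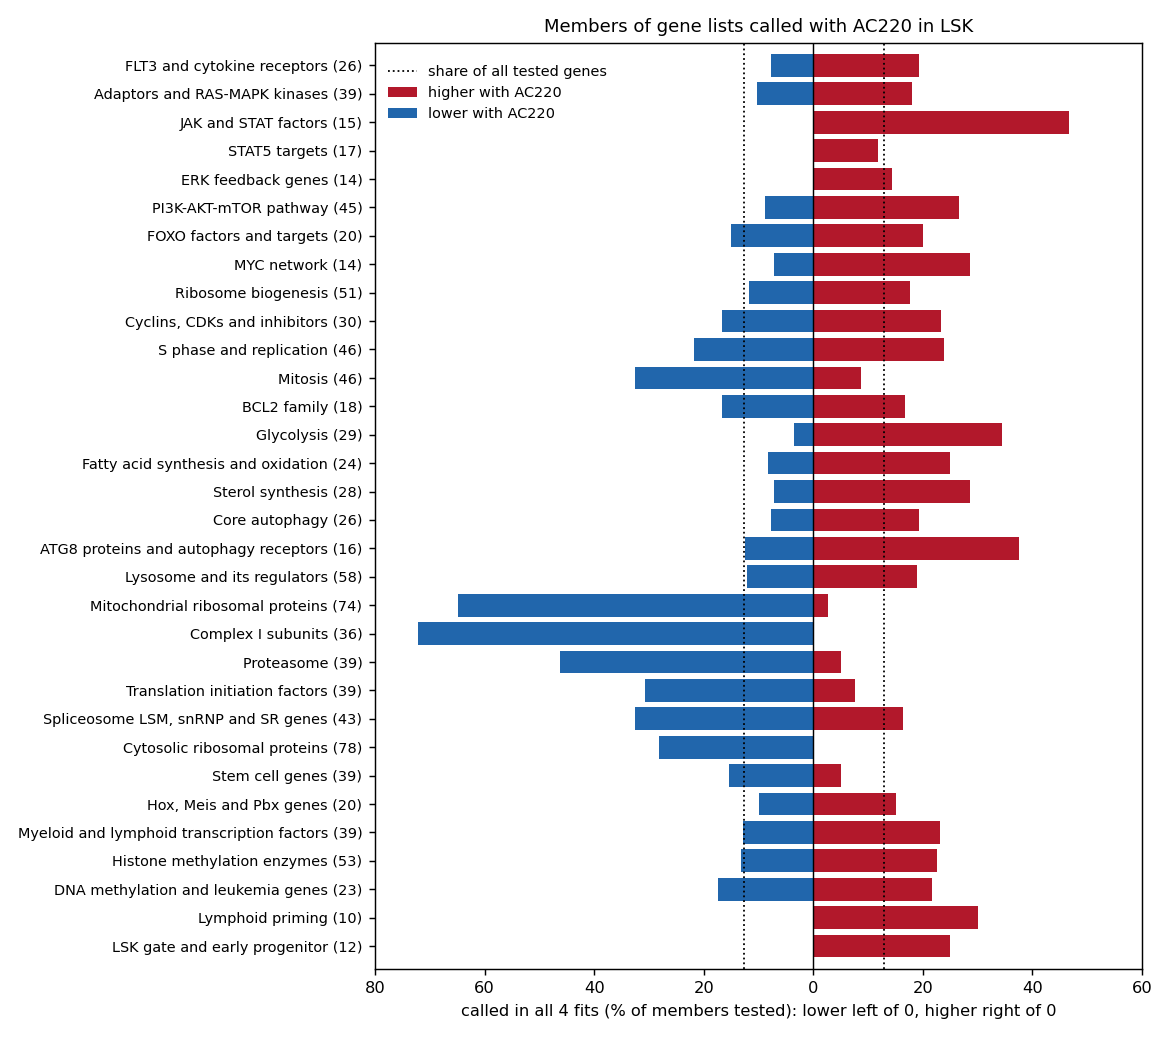
Share of each gene list (members tested in parentheses) called in the same direction in all 4 fits, with higher with AC220 right of 0, lower left of 0, and dotted lines at the shares of all tested genes, 12.9% and 12.6%. Complex I (26 of 36 lower), mitochondrial ribosomal proteins (48 of 74 lower) and the proteasome (18 of 39 lower) reach farthest to the left, and JAK and STAT factors (7 of 15 higher) farthest to the right.

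Of 39 stem cell genes 2 rose and 6 fell, and without vehicle library 1 the counts were 4 higher and 5 lower. Tal1, a factor of stem and erythroid cells, fell to 16.3, 12.1, 6.85 and 8.66 CPM with AC220, against 35.2, 23.4, 27.8 and 31.2 CPM with vehicle (-2.11 ± 0.35, -2.57 to -1.42). Myct1, a gene of stem cells and endothelium, fell (-2.15 ± 0.37, -2.15 to -1.01). Cd34, a surface marker of progenitors, rose to 465, 743, 635 and 664 CPM with AC220, against 214, 235, 228 and 246 CPM with vehicle (0.83 ± 0.11, 0.79 to 1.44). Among Hox genes and genes of their cofactors 3 of 20 rose and 2 fell. Hoxa7 fell (-0.84 ± 0.18, -1.09 to -0.84) and Pknox1, a homeobox factor, rose (1.28 ± 0.24, 1.06 to 1.97). Hoxa9 (-0.83 ± 0.20, -0.96 to -0.18), Meis1 (0.69 ± 0.19, 0.35 to 1.16) and Gata2 (0.26 ± 0.42, -0.52 to 0.93) were not called in all 4 fits.

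Factors of the myeloid and lymphoid branches had 9 of 39 higher and 5 lower, with 3 lower when AC220 library 2, 3 or 4 or vehicle library 1 or 2 was left out. Gfi1, a repressor that directs granulocyte fate and restrains stem cell cycling, stood at 38.2, 47.6, 32.7 and 40.1 CPM with AC220 and 4.48, 5.77, 9.05 and 8.21 CPM with vehicle (1.99 ± 0.22, 1.24 to 2.53). Notch1, a receptor and transcription regulator of the T cell lineage, stood at 30.3, 33.2, 52.6 and 37.3 CPM with AC220 and 0.802, 2.74, 0.301 and 4.59 CPM with vehicle (4.01 ± 0.59, 3.19 to 4.17). Notch2 (2.43 ± 0.28, 1.76 to 2.51) and the E protein gene Tcf3 (1.40 ± 0.14, 0.44 to 1.97) rose, and the C/EBP partner Cebpg fell (-1.68 ± 0.17, -1.68 to -0.85). Cebpa, the factor of granulocyte-monocyte commitment, was called in the first 2 fits (0.87 ± 0.28, 0.16 to 1.29). Spi1 (PU.1) passed the third fit alone (-0.05 ± 0.24, -0.57 to -0.05). In the lymphoid priming list 3 of 10 rose, Flt3, Notch1 and Satb1, and none fell. The lymphoid receptor gene Cd27 was called in the 3 matched fits and stood at 0.10 as counted.

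The gate itself can be read in the same libraries. Sca-1 is encoded by Ly6a, which stood at 57.1, 111, 111 and 109 CPM with AC220 and 67.9, 134, 149 and 118 CPM with vehicle. The groups overlapped, and its log2 fold change was -0.27 as counted and 1.45 ± 0.26 matched on length. Of 12 gate and early progenitor genes, 3 rose (Flt3, Kit and Cd34) and none fell, and their summed level ran from 1870 to 2630 CPM with AC220 and from 2120 to 2510 CPM with vehicle.

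Markers of mature cells were present in both groups, and their sums, which carry no length correction, differed for several lists. Dendritic cell and MHC class II markers summed to 5640 to 23500 CPM with AC220 and 20100 to 71400 CPM with vehicle. Neutrophil markers summed to 1350 to 2550 CPM with AC220 and 3630 to 9260 CPM with vehicle, and T and NK cell markers to 399 to 778 CPM with AC220 and 1680 to 2490 CPM with vehicle. B cell markers summed to 47.1 to 62.8 CPM with AC220 and 123 to 197 CPM with vehicle, and basophil and mast cell markers to 78.6 to 101 CPM with AC220 and 162 to 262 CPM with vehicle. The ranges of the dendritic cell sum overlapped, and those of the other 4 lists did not. Lymphoid priming genes summed to 1320 to 2460 CPM with AC220 and 933 to 1110 CPM with vehicle, and stroma and endothelium markers to 86 to 113 CPM with AC220 and 43.9 to 73.9 CPM with vehicle. The sums of primary granule, monocyte, macrophage, erythroid and megakaryocyte markers overlapped between the groups. No member of the neutrophil, dendritic cell or basophil list was at 0 in a group, while 1 T and NK cell, 2 B cell and 2 stroma markers were at 0 with vehicle. By gene, none of 14 neutrophil markers passed all 4 fits, 2 of 14 dendritic cell markers were higher (Siglech and Flt3) and none lower, and 1 of 12 T and NK cell markers was higher and 3 lower. Of 9 B cell markers tested 1 was higher and 1 lower, and none of 8 basophil or 5 stroma markers was called. The median of the stroma markers tested was -0.29 as counted, although their sum was higher. Of 15 erythroid markers 3 were higher, or 1 to 2 when 1 library was left out. Of 10 primary granule markers 3 were lower, or 1 to 3 when 1 library was left out. Leaving out 1 library gave up to 2 neutrophil markers lower (without vehicle library 3), 1 dendritic cell marker higher (without any 1 library other than AC220 library 1 or vehicle library 2) and 2 T and NK cell markers higher (without vehicle library 2 or 3). The part of such cells in the results above was not tested. The median log2 fold change of neutrophil markers was -0.62 as counted and 0.33 matched on length. It was -0.13 and 0.12 for B cell, -0.74 and -0.28 for T and NK cell, and 0.06 and -0.03 for basophil and mast cell markers. In these bulk libraries, fewer cells of a type, less of its RNA per cell and under-counting of short transcripts cannot be told apart.

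Chromatin genes moved in both directions. Of 53 histone methylation enzymes 12 rose and 7 fell. Carm1, an arginine methyltransferase, stood at 90.6, 85.0, 81.3 and 77.0 CPM with AC220, against 0.581, 1.43, 3.84 and 1.5 CPM with vehicle (4.81 ± 0.51, 3.95 to 5.52; edgeR, adjusted p = 8.1e-07). It was under 4 CPM in every vehicle library. Kmt2d, a histone H3 lysine 4 methyltransferase with a transcript of 19823 bases, stood at 66.7, 41.8, 43.3 and 45.4 CPM with AC220 and 19.5, 15.0, 8.65 and 9.33 CPM with vehicle (2.13 ± 0.16, 1.21 to 2.13). Prmt5 (1.13 ± 0.11, 0.34 to 1.60) and Smyd2 (1.71 ± 0.14, 0.85 to 1.71), which methylate arginine and lysine, rose. Of 23 DNA methylation and leukemia genes 5 rose and 4 fell. Smc3, a cohesin subunit with a coding sequence of 3651 bases, fell to 115, 102, 112 and 107 CPM with AC220, against 512, 375, 466 and 470.4 CPM with vehicle (-2.71 ± 0.15, -2.71 to -2.06). Its partner Smc1a fell too (-1.14 ± 0.11, -1.14 to -0.49), but stood at -0.08 with the median transcript length (adjusted p = 0.662).

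For the remaining lists the counts were as follows, beside 12.9% higher and 12.6% lower over all genes. DNA repair had 8 of 57 higher and 7 lower, p53 and its targets 2 of 25 higher and 3 lower, and histone acetylation and bromodomain genes 7 of 43 higher and 5 lower. The TCA cycle had 7 of 28 higher and 7 lower, one-carbon and nucleotide synthesis 5 of 34 higher and 4 lower, and aminoacyl-tRNA synthetases 5 of 27 higher and 3 lower. Among stress programs, the integrated stress response had 2 of 21 higher and 3 lower, the unfolded protein response 5 of 25 higher and 4 lower, and NRF2 and antioxidant genes 6 of 28 higher and 4 lower. Interferon response genes had 5 of 33 higher and 1 lower, MHC class I genes 5 of 17 higher and 3 lower, and NF-kB factors 3 of 18 higher and 1 lower. Homing and adhesion genes had 3 of 30 higher and none lower, amino acid transporters 3 of 21 higher and 1 lower, replication-dependent histones 3 of 27 higher and 2 lower, and immediate early genes 1 of 13 higher and 1 lower.

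Some of these counts moved by over 1.5 times when 1 library was left out. The higher MHC class I genes were 3 without any 1 AC220 library or without vehicle library 2. Without vehicle library 3, 8 interferon genes and 4 p53 genes were higher, and 4 histones and 1 homing gene were lower. Without AC220 library 1, 1 p53 gene and 1 integrated stress response gene were higher, and 2 immediate early genes were lower. Without vehicle library 1, the lower genes were 1 of the integrated stress response, 2 amino acid transporters and 1 histone. The histones had 5 higher without vehicle library 2 and 1 lower without AC220 library 2 or 4. The lower NF-kB genes were 0 without AC220 library 3 or vehicle library 3 or 4.

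The largest length-matched changes within each class of transcript length, among genes with at least 5 CPM in both groups and no overlap, included the following. The classes follow the longest transcript, and for most of these genes the range over the 4 fits is not given. Among longest transcripts under 1500 bases, Hist1h4d (2.95 ± 0.29), Ptma (2.45 ± 0.13), Rhog (2.53 ± 0.16), Snrnp35 (2.67 ± 0.32) and Tnfaip8l2 (3.30 ± 0.45) rose. Histone genes such as Hist1h4d have near-identical copies, and Ptma, Actb, Ubb, Hmga1 and ribosomal protein genes have processed copies, so their counts are uncertain where reads fit several loci. Ptma encodes prothymosin alpha, a small acidic nuclear protein, and stood at means of 1890.5 CPM with AC220 and 866 CPM with vehicle. Ndufa12 (-3.44 ± 0.15), Lsm7, Ndufc1 (-2.87 ± 0.19), the calmodulin gene Calm2 (-2.85 ± 0.11) and Tma7 (-2.77 ± 0.15) fell, Ndufa12 to 106, 98.4, 109 and 97.4 CPM with AC220, against 2058, 2331, 2336 and 2385 CPM with vehicle.

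From 1500 to 3000 bases, Lypla2, a thioesterase that removes palmitate (3.59 ± 0.37), Acadvl, the lamin gene Lmnb1 (3.09 ± 0.29), Noc2l and beta-actin, Actb (3.06 ± 0.26), rose. Actb stood at 9600.2, 7901, 10274 and 9754 CPM with AC220 and 1495, 1486, 1100.1 and 863 CPM with vehicle, so that a gene often used as a constant reference moved with the treatment. Mrpl33, Rida (-4.41 ± 0.22), Brix1, Otos (-4.24 ± 0.30) and Ndufb8 fell.

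At 3000 bases and over, the RNA editing enzyme Adar (3.16 ± 0.33), Mical1 (2.99 ± 0.44), Ncoa4 and the splicing repressor Ptbp1 (2.92 ± 0.21) rose. Sub1, a transcription coactivator, fell to 143, 105, 120.4 and 125 CPM with AC220, against 2806, 3293, 3148 and 2919 CPM with vehicle (-5.29 ± 0.18, -5.29 to -3.09). Mrpl42, the deubiquitinase Uchl3 (-4.64 ± 0.16), Arpp19 (-4.50 ± 0.18) and Ndufb7 fell. The principal transcript of Ndufb7 is far shorter than its longest, as given above. The ranges of Ndufb7 and Mrpl42 over the 4 fits, given with their lists, reach much smaller changes. Arpp19, which encodes an inhibitor of phosphatase PP2A that acts at mitotic entry, has a principal transcript of 3944 bases and stood at means of 77.4 CPM with AC220 and 1093 CPM with vehicle.

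Ranked instead by the fourth fit within classes of principal transcript length, further genes appear. Under 1500 bases, the chromatin protein gene Hmga1 (3.62 in that fit), Vps35l (3.78) and Mbp (3.31) rose, the last 2 with longest transcripts of 5097 and 4797 bases, and the RNA exosome gene Exosc8 (-2.47), Ubb (-2.73), Lrg1 (-2.82) and Clybl (-2.61) fell. From 1500 to 3000 bases, Mafk (2.91), Adi1 (2.75), Tmem167b (2.75) and Arl8a (2.67) rose, and Tmem108 (-4.82), Afp (-3.97), Pnkd (-3.88) and Mphosph8 (-3.53) fell. At 3000 bases and over, Dr1 (2.80), Rnf11 (2.65) and Dck (2.55), which encodes deoxycytidine kinase, rose. Camta1 (-4.28), Rtf1 (-3.99) and Tcp11l1 (-3.71) fell. The coding sequence of Rtf1, 2145 bases, is longer than the median of the tested genes.

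Genes with longest transcripts of 2000 to 4000 bases were also counted without an offset. Within this class the length offset (log2, AC220 minus vehicle) still ran from -0.05 at 2000 bases to 0.69 at 4000 bases. Coding length and GC content were not matched either, so these counts are not free of those trends. Of the 5963 genes in the class, 2311 were called higher and 1085 lower as counted, 57% in all. With TMM factors taken from these genes alone the split was 1622 and 1500 (52.4% in all), because that scaling moved the median of all genes to -0.37, against 0.09 with TMM over all genes.

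A second contrast asked how AC220 acted in the presence of Lys05. The Combination group against the Lys05 group, 4 libraries each, is a contrast between other libraries than those above, although all 16 libraries were fitted together and share the estimate of spread. It had 6689 genes (42.6%) called matched on length and 3435 called in all 4 fits, 21.9% of those tested. Of the 3989 genes called with AC220 alone, 2680 (67.2%) were also called in that contrast in the same direction, which is 78% of its calls, and 2 in the opposite direction. Length-matched log2 fold changes of the combination over Lys05 were 0.91 for Flt3, 1.63 for Stat5a, 2.65 for Akt1, 1.43 for Myc, -2.06 for Cdkn1a, -2.82 for Map1lc3b and -3.48 for Ndufb8. Of the 141 named genes called with AC220, 130 were called there too, in the same direction. Counts on transcripts under 1000 bases made up 7.89% to 10.6% of gene counts in Combination libraries and 17.3% to 20.2% in Lys05 libraries, so drug and library difference cannot be told apart there either. The difference of the AC220 effects without and with Lys05 passed for 0 genes in edgeR in each of the 4 fits. In the length-matched fit 1646 of the 15697 genes had an unadjusted p under 0.05, more than the share of 0.05 that chance alone gives. DESeq2 called 83 (0.529%). The 0 calls in edgeR do not show that the effects without and with Lys05 were alike.

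**Figure D5:**
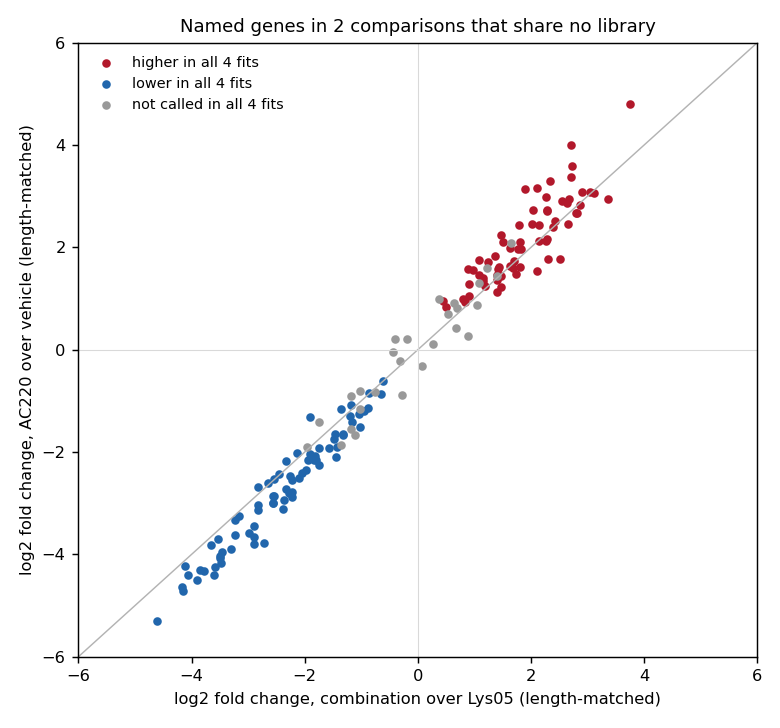
Length-matched log2 fold change of each named gene, AC220 over vehicle (vertical) against combination over Lys05 (horizontal), colored by the call with AC220, with the line of equal change. Flt3 stands at 1.06 and 0.91, and Ndufb8 at -4.18 and -3.48.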

How the data were processed

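RNA was sequenced from sorted cells with RNeasy Plus Micro, SMARTer v4 ultra-low-input and Nextera XT kits in paired reads of 150 bases, per the labels' protocols. The authors deposited a table of raw counts per gene, with 56246 genes and 5 summary lines, which were left out and hold 15.2% to 18.2% of each AC220 and 19.1% to 22.5% of each vehicle library. For the build GRCm38, the submitters' processing notes list HTSeq 0.11.2 and STAR 2.7.3a, with Trim Galore 0.6.5, DESeq2 1.26.0 and bcl2fastq 2.20. The strand setting and annotation release are not given in the sources used here, so it is not known how reads on overlapping genes of opposite strands were counted.

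Gene lengths, GC content and principal transcripts came from GENCODE M21, which gave a length for 55144 genes. Genes were filtered with filterByExpr and scaled with TMM, and 16 LSK libraries were fitted together with edgeR 4.0.16 (R 4.3.3; quasi-likelihood test, robust). Offsets were loess curves (span 0.3) of each library's deviation on length, GC or coding length. Each of the 4 fits was run on simulated counts with far fewer changed genes than are called here, which cannot show how the fits do on these data. Alternatives used DESeq2 1.42.0 and limma 3.58.1 (voom with quality weights). A call needs a Benjamini-Hochberg adjusted p under 0.05. The SE of a log2 fold change was derived from the test, as its absolute value divided by the square root of the F statistic.

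Named genes are up to 5 higher and 5 lower genes per class of longest transcript, with at least 5 CPM in both groups and no overlap, up to 4 members of each described list by smallest p, and 30 genes followed whatever their result. The members and lists were chosen with earlier results of these data known. The fit on principal transcripts, the rule that a call needs all 4 fits, and the ranking of genes by that fit were chosen after seeing the data. The added ranking names further genes per class of principal transcript length. Some genes that these rules name are not reported here. Satb1 and Siglech were named after their values were seen. Replicate libraries differed by far more than sampling noise (chi-square per gene between 32.3 and 291.8), so none was counted as a duplicate.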

Additional observations from a re-analysis of the deposited data

Results flagged for a closer look

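In 17 of 338 groups of 4 libraries, 1 library stood far from the others by Dixon's ratio at its 95% limit, close to the 1 in 20 groups that chance gives. With AC220, library 1 was low for Ly6a (57.1 CPM, others 109 to 111), Mafk (38.2, others 63.6 to 66.2), Ndufb8 (88.6, others 102) and Vmp1 (28.4, others 45.9 to 47.8) and high for Kmt2d (66.7, others 41.8 to 45.4). AC220 library 2 was low for Atp6v1g1 (84.6, others 98.5 to 100) and Mrpl33 (23.4, others 28.2 to 28.8). AC220 library 3 was high for Ccnd2 (656, others 419 to 444), Nhp2 (319, others 251 to 262) and Tmem108 (15.2, others 4.71 to 5.87). With vehicle, library 1 was low for Acly (31.3, others 37.5 to 38) and Ndufa12 (2060, others 2330 to 2390) and high for Ier3 (14.6, others 3.25 to 4.69) and Lypla2 (15.6, others 10.5 to 11.2). Vehicle library 2 was high for Arpp19 (1270, others 1020 to 1050), and vehicle library 4 for Afp (121, others 95.1 to 99.3) and Spc25 (223, others 181 to 186). Of these 17 values, that of Ier3 put a vehicle library inside the AC220 range, and that of Ccnd2 put an AC220 library inside the vehicle range of 547 to 697 CPM. By library, AC220 library 1 held 5 of the values and vehicle library 1 held 4.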

How the results depend on the processing

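No paired analysis was possible because the labels carry no replicate numbers, and the numbers used here were given in accession order. The counts of called genes over all tested genes or over those of 2000 to 4000 bases stayed within 1.5 times their value under each alternative run, while several counts over single gene lists did not, as given with those lists. Leaving out each library in turn gave 6809 to 7715 genes matched on length, 7888 to 8921 as counted, 5236 to 5934 in both of these, 3412 to 4029 in all 4 fits, 3157 to 3527 of 2000 to 4000 bases and 5906 to 6516 for combination over Lys05. The difference in the share of short transcripts stayed between -12.1 and -11.5 percentage points. Of the 3989 genes called in all 4 fits, the same direction was called for 99.1% with RLE scaling, 98.4% with DESeq2, 92.2% with voom, 87.5% without a filter, 83% with the 8 libraries alone and 84.3% to 89.1% without 1 library. Among settings tried for the 168 named genes, 2975 results kept their side of the threshold. These include turns of sign with no call before or after, such as Bcl2 (-0.32 matched on length, 0.25 in the fit on principal transcripts). A further 35 lost the call, 6 gained it and 8 turned in direction with a call in the main fit, the alternative or both. The last were Ly6a (-0.27 as counted, -0.20 with median transcript length), Rpl32 (-0.47 and -0.37), Rpl36 (-0.29 as counted), Rpa3 (0.048 with length and GC), Socs2 (0.11 in the fit on principal transcripts) and Bnip3l (0.026 with median length). The cause was not tested.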
